A study of Mus musculus with 18 samples.

Results

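Tumors of mice given dendritic cells together with an antibody against semaphorin 4D were compared with tumors of mice given the antibody without the cells. Of the 18 tumor samples in the series, 10 enter this comparison. They were chosen by the arm named in their titles. The combination arm, HER2 DC1+aSEMA4D, has 6 samples, 3 labelled treated tumor and 3 labelled untreated tumor. The anti-Semaphorin4D arm has 4 samples, 2 of each kind of tumor. All tumors grew from TUBO, a mouse mammary carcinoma cell line driven by the rat HER2/neu oncogene. The hosts were female BALB/c mice, and treatment lasted 3 weeks. The HER2 DC1 cells were injected into a tumor. Both arms also hold tumors labelled untreated, so not every tumor of the combination arm need have received the cells. TUBO is 1 cell line, so the tumors differ by host and treatment and not by tumor genotype. At the end, 4 tumors of the arm given HER2 DC1 without the antibody and 4 control tumors, 2 of each kind in both arms, are brought in. The labels do not say which tumor of a control mouse counts as treated, or whether the samples come from separate mice, so p-values measure the spread between these samples. It is also not stated whether tumors with the same number share a mouse.

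Dendritic cells take up antigen and display it on MHC molecules to T cells, which they activate through costimulatory ligands and cytokines. Semaphorin 4D is a membrane protein of leukocytes and tumor cells that signals through plexin-B receptors and is known to affect immune cell positioning in mouse tumors. Activated T cells and natural killer cells release interferon gamma, which acts through transcription factors that include Irf1. Its targets include MHC class I, subunits of the immunoproteasome, the chemokine Cxcl9 and PD-L1, the ligand of an inhibitory T cell receptor.

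RNA was measured with the NanoString nCounter Metabolic Pathways panel, which counts molecular barcodes hybridised to 768 genes without amplification. Values are the deposited log2(count + 1). Panel counts before scaling ran from 596177 to 989309 in the 10 samples. A limit at the mean plus 2 SD of the 8 negative-control probes lay between 5.24 and 5.85 (log2). Between 518 and 609 genes exceeded it in a sample, and 497 did so in all 10. The columns were of 2 kinds. All 6 combination samples and replicate 1 of both anti-semaphorin 4D groups were scaled by a factor per sample, while replicate 2 of both anti-semaphorin 4D groups holds whole numbers. Replicate 2 of the treated combination tumors stood apart, at 33.4 on the leading principal component (which held 70.2% of the variance), against 7.91 and 17.7 in the other treated combination tumors, -6.44 to 5.36 in untreated combination tumors and -19.2 to -12.4 in anti-semaphorin 4D tumors. Of the epithelial and mammary markers fixed for this tissue, the panel holds Trf (transferrin) and Egfr. Trf was the most abundant transcript in every sample of the comparison except that replicate, in which H2-Aa, a class II MHC gene, was highest.

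In the combination arm, 321 of 768 genes were higher and 23 were lower than in the anti-semaphorin 4D arm (limma with the kind of tumor as a block, Benjamini-Hochberg adjusted p under 0.05). That is 44.8% of the panel called, 41.8% higher and 2.99% lower. The difference exceeded 2-fold for 156 of the higher genes and for 2 of the lower ones, Ndufb2 and the housekeeping gene Mrps5. The 12 largest increases included the T cell signaling genes Lat, Zap70 and Cd28, the PD-1 ligands Cd274 and Pdcd1lg2, the chemokine gene Cxcl9 and the hexokinase gene Hk3. All 344 genes changed in the same direction in treated and in untreated tumors. They were selected on the change over both kinds together, so this agreement follows in part from the selection. Every combination sample lay above every anti-semaphorin 4D sample for 244 genes (31.8%) and below for 26 (3.39%).

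The scale of the arms bears on these counts. The median gene was 0.46 higher (log2) in the combination arm. Centring each sample on its median, which removed a shift of 0.46, left 150 genes higher (19.5%) and 142 lower (18.5%). Centring on the panel's 20 housekeeping genes, which removed 0.18, left 239 higher (31.1%) and 48 lower (6.25%). Without replicate 2 of the treated combination tumors 325 genes were higher (42.3%) and 25 lower (3.26%), and among scaled columns alone 209 were higher (27.2%) and 10 lower (1.3%). In all 3 scalings 150 genes were higher and 23 were lower. Of the housekeeping genes themselves, 8 were higher and 1 lower on the deposited scale, with a median change of 0.13. Below, a change is on the deposited scale unless another is named. Each list's median stands against 0.46 for the panel, and each list's count of higher genes against 41.8%. Arms said not to overlap stand against 31.8% of the panel separated upward and 3.39% downward. Many genes were named for a small p in this comparison, so their separation is not a further result.

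**Figure D1:**
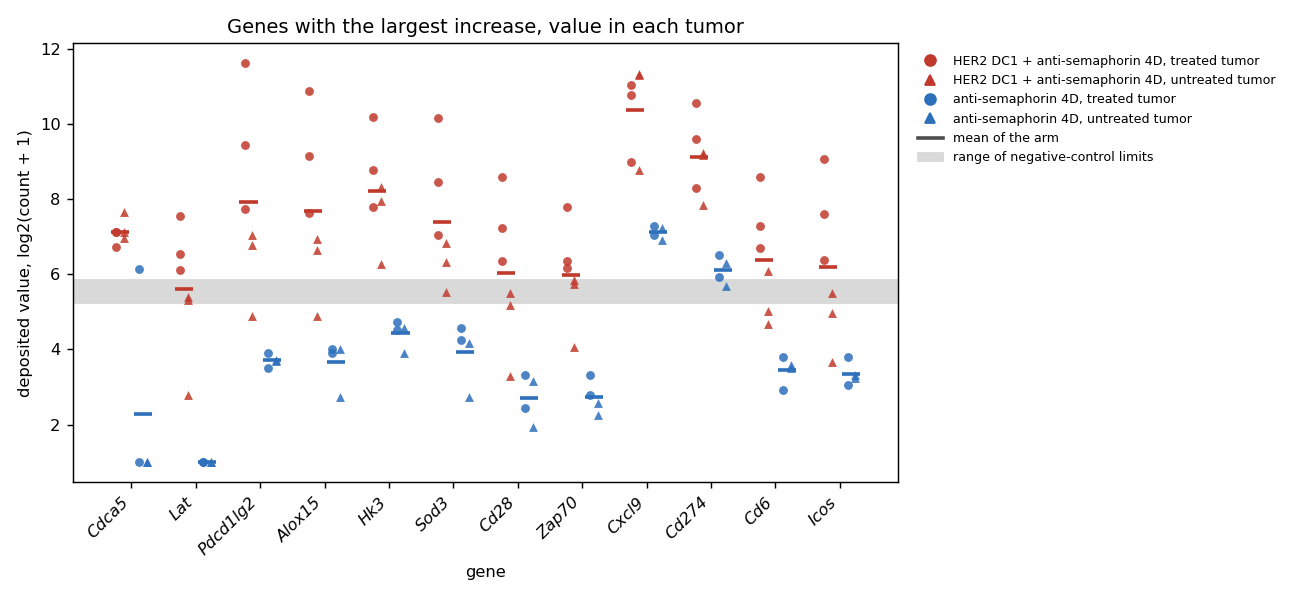
Deposited log2(count + 1) values of the 12 genes with the largest increase, in each combination tumor (red) and each anti-semaphorin 4D tumor (blue), with circles for treated and triangles for untreated tumors, a bar at the mean of each arm and a gray band over the range of the negative-control limits. Most anti-semaphorin 4D values lie below the band, while Cxcl9 and Cd274 are measured in both arms and the combination tumors lie above all 4 anti-semaphorin 4D tumors.

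Single genes of the interferon response and of antigen presentation rose, against 41.8% of the panel. Of 6 measured interferon response genes, 4 rose, and the list's median was 1.15. One of them, the tryptophan-degrading enzyme gene Ido1, stayed below the limit in every sample and lost its call with either centring. Of 6 MHC class I genes, 4 rose (median 1.38), and the other two, below the limit throughout, did not pass. Of 5 MHC class II genes, 2 rose (median 0.91). Of 7 proteasome genes, 3 rose, with a median of -0.07, so that most of this list lay under the panel's median. The counts of the class II and proteasome lists are near the panel's share.

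The promoters of these genes were searched for motifs bound by interferon-activated factors. Of 13 genes called in the 4 lists, 11 had a promoter entry in RefSeq (GRCm38.p6). In the 250 bases before the start site, 3 held a match on either strand to the interferon-stimulated response element (GAAA, any 2 bases, GAAA) or the gamma-activated site (TTCNNNGAA). They are shown because these genes rose, 5′ to 3′ on the gene's strand with the match in capitals. Irf1 (chr11:53769764-53770013, plus strand) holds a gamma-activated site that begins at -90. H2-T23 (chr17:36032702-36032951, minus strand) holds an interferon-stimulated element that begins at -124 and reads in reverse. H2-M3 (chr17:37269984-37270233, plus strand) holds a gamma-activated site that begins at -209. Each of these promoters held 1 match. Irf1 has another start site in RefSeq, and the 250 bases before it (chr11:53770223-53770472) held none.
Irf1: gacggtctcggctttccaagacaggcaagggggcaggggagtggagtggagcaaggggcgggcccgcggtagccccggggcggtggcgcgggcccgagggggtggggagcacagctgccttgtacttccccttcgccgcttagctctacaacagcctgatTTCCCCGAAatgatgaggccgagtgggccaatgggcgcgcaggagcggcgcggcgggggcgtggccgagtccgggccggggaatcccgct
H2-T23: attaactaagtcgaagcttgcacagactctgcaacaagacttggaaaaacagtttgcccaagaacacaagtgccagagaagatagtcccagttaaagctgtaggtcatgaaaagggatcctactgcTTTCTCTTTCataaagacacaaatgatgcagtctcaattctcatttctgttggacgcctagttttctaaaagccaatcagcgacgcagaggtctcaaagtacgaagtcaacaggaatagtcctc
H2-M3: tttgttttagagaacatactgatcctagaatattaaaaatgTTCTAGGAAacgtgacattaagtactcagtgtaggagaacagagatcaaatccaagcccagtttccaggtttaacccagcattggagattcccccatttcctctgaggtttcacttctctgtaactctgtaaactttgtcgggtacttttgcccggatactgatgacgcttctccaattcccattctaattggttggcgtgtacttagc
The interferon-stimulated element occurred in 2.98% of 32851 RefSeq promoters, in 2.68% of 747 promoters of panel genes and in 1.84% of 326 promoters of genes that rose. The gamma-activated site occurred in 7.02%, 5.35% and 6.44% of the same sets. These are matches of letters and say nothing of binding.

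Irf1, a transcription factor of the interferon response, had values between 10.49 and 11.68 in the combination tumors (median 11.27), against 9.61 and 9.84 in treated and 9.65 and 9.93 in untreated anti-semaphorin 4D tumors. All 6 combination tumors lay above all 4 others. The difference was 2.58-fold (log2 change 1.37, SE 0.26, adjusted p = 0.00363). Where 4 anti-semaphorin 4D values stand in a row below, they are in this order.

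Cxcl9, a chemokine that attracts activated T cells, showed the largest measured fold of the interferon list. It was between 8.79 and 11.35 (median 10.91) in combination tumors, against 7.04, 7.29, 6.93 and 7.24 in anti-semaphorin 4D tumors. The arms did not overlap, and the 2 highest combination values, 11.31 and 11.35, belong to untreated tumors. The mean was 10.38 ± 1.17 (SD, n = 6) against 7.12 ± 0.17 (n = 4), a 9.53-fold difference (adjusted p = 0.00261). Transcripts of interferon gamma itself were below the limit in all 10 samples. Ifng had a log2 change of 0.61 (SE 0.40, adjusted p = 0.239).

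The MHC class I genes that rose were the nonclassical H2-T23, H2-M3 and H2-Q2 and the classical H2-D1. H2-T23, the mouse Qa-1 molecule that presents peptides to natural killer cell receptors and some T cells, was between 11.72 and 13.27 (median 12.32) in combination tumors, against 9.99, 10.09, 10.02 and 10.26 in anti-semaphorin 4D tumors. It was 4.95-fold higher (log2 change 2.31, SE 0.27, adjusted p = 0.00165). H2-M3, which presents N-formylated peptides, was 4.05-fold higher, H2-Q2 3.04-fold and H2-D1 2.24-fold (adjusted p from 0.00165 to 0.00386). H2-D1 was the most abundant of them, at 14.51 ± 0.36 (n = 6) against 13.35 ± 0.35 (n = 4). None of the 4 genes overlapped between the arms, where 31.8% of the panel was separated upward. Each kept its call in all 3 scalings and whichever sample was left out.

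Among the genes of peptide processing, Psmb10, an inducible subunit of the immunoproteasome, was between 9.76 and 11.50 (median 10.79), against 8.83, 8.93, 8.78 and 9.03 in anti-semaphorin 4D tumors. Its lowest combination value lay above all of these, and the difference was 3.45-fold (adjusted p = 0.00269). Psme2, part of the proteasome activator PA28, rose 1.66-fold with overlapping arms (adjusted p = 0.0102), and Psmc1, an ATPase of the constitutive proteasome cap, rose 1.25-fold (adjusted p = 0.0452). With median centring Psme2 had adjusted p = 0.268 and Psmc1 turned to -0.13 (adjusted p = 0.471). Psmc1 also lost its call with housekeeping centring (adjusted p = 0.392).

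MHC class II genes split. H2-Eb1, a chain of the class II molecule, was between 12.59 and 15.11 (median 13.27), against 11.61, 11.81, 11.25 and 11.67, 4.05-fold higher (adjusted p = 0.00297). H2-DMa, which loads peptides onto class II molecules, was 4.11-fold higher (10.52 ± 0.79 against 8.48 ± 0.16, adjusted p = 0.00297). Both were separated between the arms. H2-Aa, the alpha chain of another class II molecule, did not pass (log2 change 0.91, SE 0.34, adjusted p = 0.0522), with 15.59 in replicate 2 of the treated combination tumors, 14.94 and 13.71 in the other treated ones and 13.37 to 14.03 in untreated ones.

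**Figure D2:**
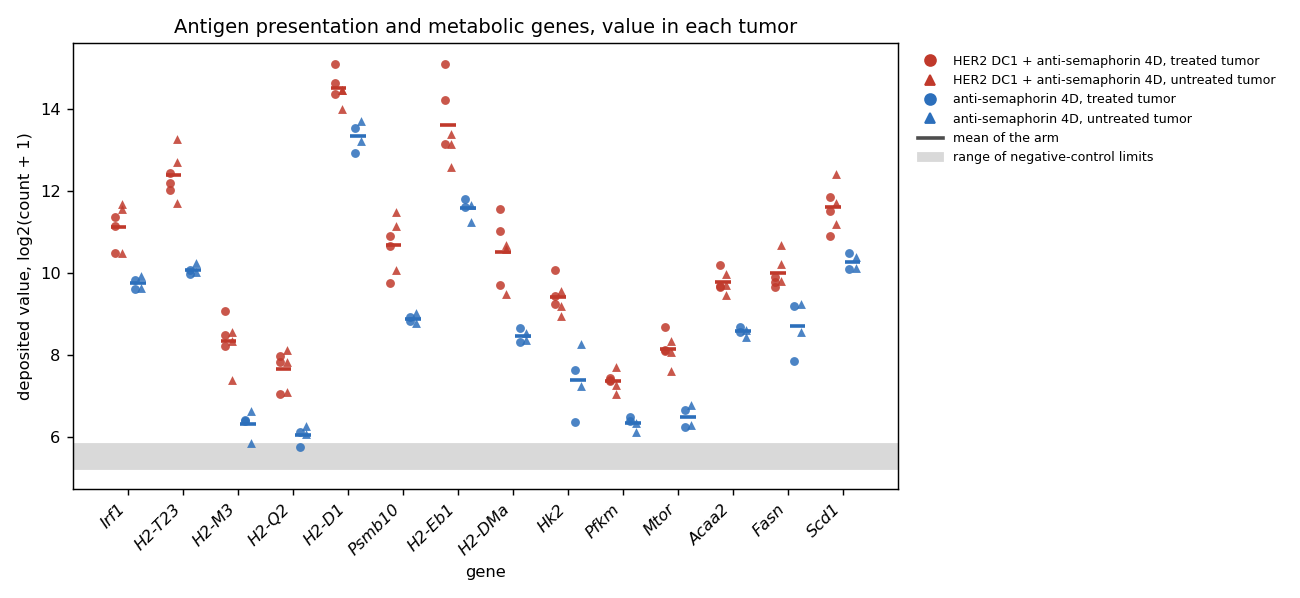
Deposited log2(count + 1) values of antigen presentation, signaling and metabolic genes in each combination tumor (red) and each anti-semaphorin 4D tumor (blue), with circles for treated and triangles for untreated tumors and a bar at the mean of each arm. For Irf1, H2-T23, Psmb10, Mtor and Fasn all 6 combination tumors lie above all 4 anti-semaphorin 4D tumors, and the anti-semaphorin 4D values of Hk2 and Fasn are spread more widely than those of Acaa2.

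T cell transcripts were low in the anti-semaphorin 4D arm and rose in the combination. Of 14 T cell markers measured, 10 rose (median 1.60), against 41.8% of the panel. With median centring 7 were higher, as were 7 among scaled columns alone. For 9 of the 14 every anti-semaphorin 4D sample lay below the limit and at least 1 combination sample above it, so their changes are bounds, and with such genes at their bound the list's median was 0.50. In these bulk samples more cells of a type and more RNA per cell cannot be told apart.

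Lat, an adaptor downstream of the T cell receptor, was at 1.00, the lowest value deposited for it, in all 4 anti-semaphorin 4D tumors. In treated combination tumors it was 6.54, 7.56 and 6.13, and in untreated ones 2.78, 5.39 and 5.33. It exceeded the limit in 5 of 6 combination samples and was at least 1.12-fold higher (adjusted p = 0.00165). Zap70, the kinase recruited to the activated receptor, was between 4.06 and 7.80 (median 6.01), against 2.78, 3.32, 2.25 and 2.58, and was at least 1.46-fold higher (adjusted p = 0.00165). The fitted log2 changes, 4.62 for Lat and 3.26 for Zap70, depend on counts near 0 and are not bounds. Here and below, an adjusted p beside a bound belongs to the fitted change, and the bound itself was not tested.

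Cd4, the coreceptor of helper T cells, was between 5.19 and 8.74 (median 6.37), against 4.48, 4.46, 2.73 and 4.17, at least 2.16-fold higher (adjusted p = 0.00323). Cd6, a surface receptor of T cells, was at least 1.92-fold higher (adjusted p = 0.00342), and Trat1, an adaptor of the receptor complex, at least 1.41-fold (adjusted p = 0.00315). These 3 genes were separated between the arms, with the 3 treated combination tumors above the untreated ones for Cd4, Cd6 and Zap70. Of the subunits of CD3, Cd3e was at least 1.36-fold higher (log2 change 1.48, SE 0.45, adjusted p = 0.0241) and Cd3g 2.79-fold higher (adjusted p = 0.0336), both with overlapping arms. Cd3d, above the limit in all 10 samples, had a log2 change of 0.33 (SE 0.22, adjusted p = 0.253). Cd8a and Cd8b1, the chains of the cytotoxic T cell coreceptor, were below the limit in all 10 samples. Without replicate 1 of the treated anti-semaphorin 4D tumors, adjusted p was 0.0871 for Cd3e and 0.108 for Cd3g, and with median centring it was 0.0699 and 0.0964. Cd3g also lost its call with housekeeping centring (adjusted p = 0.0516).

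Of 14 signaling and costimulatory genes of T cells, 11 rose and 1 fell (median 1.74, or 0.66 with dim genes at their bound), against 41.8% and 2.99% of the panel. Cd28, the receptor for the costimulatory ligands of dendritic cells, was 6.36, 8.60 and 7.23 in treated and 3.30, 5.19 and 5.50 in untreated combination tumors, against 2.44, 3.32, 1.93 and 3.17 in anti-semaphorin 4D tumors. Of the combination values, 3.30 in an untreated tumor fell within the range of the antibody arm. Cd28 was at least 1.49-fold higher (adjusted p = 0.00427). Icos, a related costimulatory receptor, was at least 1.68-fold higher (adjusted p = 0.00815), with 9.07 in replicate 2 of the treated combination tumors and 3.67 in replicate 1 of the untreated ones. Cd40lg, through which helper T cells activate dendritic cells and B cells, was at least 1.24-fold higher (adjusted p = 0.003). The phosphatase Ptprc (CD45), carried by all leukocytes, was 3.64-fold higher (10.59 ± 0.95 against 8.72 ± 0.20, adjusted p = 0.00439).

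The gene of this list that fell was Tnfrsf4 (OX40), a costimulatory receptor of activated T cells. It was 5.90, 5.82 and 6.62 in treated and 5.75, 5.88 and 6.02 in untreated combination tumors, against 6.69, 6.69, 6.55 and 6.83. Of the combination values, 6.62 fell within the range of the antibody arm. The log2 change was -0.69 (SE 0.18, adjusted p = 0.0111), with all values close to the negative-control limit.

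All 8 inhibitory checkpoint genes measured rose, against 41.8% of the panel. Each had all 6 combination samples above all 4 anti-semaphorin 4D samples, against 31.8% of the panel. The list's median was 2.15, or 1.17 with dim genes at their bound. Cd274 (PD-L1), the main ligand of PD-1, was 8.31, 10.58 and 9.61 in treated and 7.85, 9.19 and 9.23 in untreated combination tumors, against 5.92, 6.52, 5.69 and 6.30 in anti-semaphorin 4D tumors. It was 8.09-fold higher (log2 change 3.02, SE 0.44, adjusted p = 0.00173). The second ligand, Pdcd1lg2 (PD-L2), was 7.74, 11.63 and 9.45 in treated and 4.88, 6.79 and 7.05 in untreated combination tumors, against 3.50, 3.91, 3.72 and 3.70. It was at least 5.54-fold higher (adjusted p = 0.00454), with the highest value in replicate 2 of the treated combination tumors.

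The receptor Pdcd1 (PD-1) was between 6.10 and 9.27 (median 7.49), against 4.86, 5.09, 5.23 and 5.25, at least 4.29-fold higher (adjusted p = 0.0044). Ctla4, which competes with Cd28 for its ligands, exceeded the limit in 2 of 6 combination samples and in no other, and was at least 1.17-fold higher (adjusted p = 0.00267). Lag3, an inhibitory receptor for MHC class II, rose 2.92-fold (adjusted p = 0.00807). Nt5e (CD73), which makes adenosine, rose 1.73-fold and Cd276 (B7-H3) 1.67-fold (adjusted p = 0.00944 and 0.00613), and these 2 lost their calls with median centring (adjusted p = 0.238 and 0.209). Every one of the 8 calls held without replicate 2 of the treated combination tumors.

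Of 14 cytotoxic lymphocyte genes measured, 11 rose, against 41.8% of the panel (median 1.43, or 0.68 with dim genes at their bound). With median centring 7 were higher and 2 lower, among scaled columns alone 5 were higher, and leaving out 1 sample left 7 to 12. Nkg7, a protein of cytotoxic granules, was 8.13, 10.01 and 9.24 in treated and 7.25, 8.15 and 9.0 in untreated combination tumors, against 6.42, 6.64, 5.98 and 6.29, 4.92-fold higher without overlap (adjusted p = 0.00282). Ncr1, an activating receptor of natural killer cells, was at least 1.52-fold higher (adjusted p = 0.00297). Tbx21 (T-bet) and Fasl passed (adjusted p = 0.00422 and 0.00223) with no anti-semaphorin 4D sample above the limit and 3 and 2 of the combination samples above it. Perforin (Prf1) was at least 1.69-fold higher (adjusted p = 0.00927).

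Granzyme B (Gzmb), a protease of cytotoxic granules, was 5.53, 8.36 and 6.07 in treated and 5.80, 5.71 and 5.91 in untreated combination tumors, against 5.21, 4.91, 4.82 and 4.25. The arms did not overlap, and replicate 2 of the treated combination tumors lay far above the other 5. Gzmb was at least 1.72-fold higher (adjusted p = 0.0308). Its adjusted p was 0.0866 without replicate 2 of the treated anti-semaphorin 4D tumors, 0.104 with median centring and 0.0527 with housekeeping centring.

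Some markers of other cell types rose as well and many did not pass, and their part in the results was not tested. The macrophage, neutrophil and mast cell, and B cell lists held smaller shares of higher genes than the 41.8% of the panel. The summed level of the 14 T cell markers (linear, counts after the authors' scaling) was 509.8 to 3533 in combination tumors, against 366.2 to 513 in anti-semaphorin 4D tumors. For the 7 macrophage and monocyte markers it was 6801 to 15050 against 6539 to 8180, and 1 of 7 passed. That gene, Cd84, an adhesion receptor of leukocytes, was 9.05, 11.53 and 10.32 in treated and 7.36, 7.53 and 8.42 in untreated combination tumors, against 7.47, 6.98, 6.42 and 6.52 (4.56-fold, adjusted p = 0.0071). The treated combination tumors held the 3 highest values. Cd68, a lysosomal protein of macrophages, did not pass (log2 change 1.34, SE 0.50, adjusted p = 0.0541), nor did Ms4a4a (adjusted p = 0.182). Fcgr4, Cd14 and Itgam had log2 changes of -0.24, -0.32 and -0.02 (adjusted p from 0.305 to 0.972), and Cd163 one of 1.45 (SE 1.18, adjusted p = 0.338). The list's median was 2.03 in treated and -0.13 in untreated tumors. Within treated tumors 3 of the 7 genes were higher, against 34.4% of the panel, and within untreated tumors 0, against 1.69%. In the anti-semaphorin 4D arm Cd14, at 12.45 to 12.72, was the most abundant gene in the sum.

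Of the 2 dendritic cell markers on the panel, both passed. Flt3, the receptor that drives dendritic cell development, exceeded the limit in 2 of 6 combination samples and in no other (adjusted p = 0.00714). Hsd11b1, the enzyme that activates glucocorticoids, was at least 2.06-fold higher (adjusted p = 0.0111). Their summed level was 61.77 to 511.3 against 31.92 to 60.0. Neutrophil and mast cell markers passed in 2 of 8 cases, Csf3r, the receptor for granulocyte colony-stimulating factor (3.14-fold, adjusted p = 0.0154, and 0.0587 without replicate 1 of the treated anti-semaphorin 4D tumors), and Hdc, which makes histamine (at least 1.14-fold, adjusted p = 0.00848), and summed to 158.8 to 1120 against 131.0 to 156.0. Of 4 regulatory T cell markers, Ctla4 and Foxp3 passed, Foxp3 below the limit in all 10 samples, and the sum was 114.6 to 998.8 against 73.62 to 107.0. Il2ra, the most abundant of the 4, did not pass, and its arms overlapped (6.20 to 9.12 against 5.83 to 6.45). Of 7 B cell markers, Tnfrsf17 passed below the limit in all 10 samples, and the sum was 80.09 to 256.8 against 75.1 to 163.0.

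Some stromal markers rose too, and their part was not tested either. Of 5 fibroblast and vascular markers, 3 rose, and the sum was 484.7 to 6322 against 301.3 to 594.0. Col6a1, a chain of collagen VI, was 9.86, 11.03 and 9.30 in treated and 7.05, 6.73 and 7.56 in untreated combination tumors, against 6.55, 6.60, 5.58 and 5.73. Its arms did not overlap, and the difference was 5.56-fold (adjusted p = 0.00297). Sod3, the extracellular superoxide dismutase, was between 5.53 and 10.17 (median 6.95), against 4.57, 4.25, 2.73 and 4.17, at least 3.85-fold higher (adjusted p = 0.00262). Among epithelial markers, Egfr, the epidermal growth factor receptor, rose 2.06-fold (adjusted p = 0.00342), and Trf did not pass (log2 change -0.40, SE 0.20, adjusted p = 0.122), but was lower with median centring (adjusted p = 0.0152). The adipocyte and muscle markers summed to 266.7 to 1067 against 226.0 to 325.0, and 1 of 5 passed, Pparg, above the limit in 1 combination sample (adjusted p = 0.0165).

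Several signaling genes rose. Of 13 genes of the NF-kB and toll-like receptor list, 8 rose (median 0.69), and with median centring 4 were higher and 1 lower. Rela, the activating subunit of NF-kB, was between 7.69 and 8.70 (median 8.20), against 6.50, 6.71, 6.45 and 6.82, 3.00-fold higher (adjusted p = 0.00165). Nfkb2, the precursor of the noncanonical pathway's p52, was 3.81-fold higher (adjusted p = 0.00165), and Tnf, an inflammatory cytokine, 2.96-fold (adjusted p = 0.00173), with 2 of 4 anti-semaphorin 4D samples above the limit. Tlr1, a receptor for bacterial lipopeptides, rose 2.17-fold (adjusted p = 0.00522). None of these 4, named for their small p, overlapped between the arms, where 31.8% of the panel was separated upward.

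Of 12 cytokines, chemokines and their receptors, 5 rose, a share close to that of the panel (median 1.26, or 0.76 with dim genes at their bound). Beside Cxcl9 and Tnf these included Cxcr6, a homing receptor of effector T cells, which was 7.19, 9.64 and 8.79 in treated and 5.18, 5.56 and 6.36 in untreated combination tumors, against 4.96, 4.81, 4.44 and 4.86. The arms did not overlap, with the treated combination tumors highest. Cxcr6 was at least 3.17-fold higher (adjusted p = 0.0103) and Il21r, the interleukin 21 receptor, at least 2.42-fold (adjusted p = 0.0105).

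In the list of MYC and mTOR genes, 14 of 24 rose and 1 fell (median 0.46). Mtor, the kinase that couples nutrients to growth, was 8.10, 8.68 and 8.12 in treated and 7.63, 8.36 and 8.09 in untreated combination tumors, against 6.25, 6.66, 6.30 and 6.79. The lowest combination value exceeded the highest of the antibody arm, and the difference was 3.16-fold (log2 change 1.66, SE 0.21, adjusted p = 0.00165). Akt1s1 (PRAS40), which binds mTOR complex 1, rose 2.48-fold, and the kinases Akt2 and Akt1 rose 2.10-fold and 1.95-fold (adjusted p from 0.00165 to 0.00297). With median centring 6 of this list were higher and 2 lower, and these 4 genes kept their calls.

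Among growth factor and MAPK genes, 12 of 19 rose and 1 fell (median 0.56), and with median centring 6 were higher and 5 lower. Pdgfb, a mitogen of mesenchymal cells, rose 2.71-fold (adjusted p = 0.00297). Pik3cb, a catalytic subunit of PI3-kinase, rose 1.91-fold (adjusted p = 0.00173), and Ptger4, a receptor for prostaglandin E2, was at least 1.24-fold higher (adjusted p = 0.00253). Of 5 epigenetic regulators, 3 rose, the histone methyltransferases Kmt2a (2.60-fold) and Kmt2d (2.47-fold) and the DNA demethylase Tet2 (1.54-fold; adjusted p from 0.00223 to 0.0108). Tet2 lost its call with median centring (adjusted p = 0.439). The tumor suppressor Trp53, from the list of 12 DNA repair genes of which 2 rose, was between 9.19 and 10.36 (median 9.49), against 8.15, 8.21, 8.03 and 8.32 (2.67-fold, adjusted p = 0.00173).

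**Figure D3:**
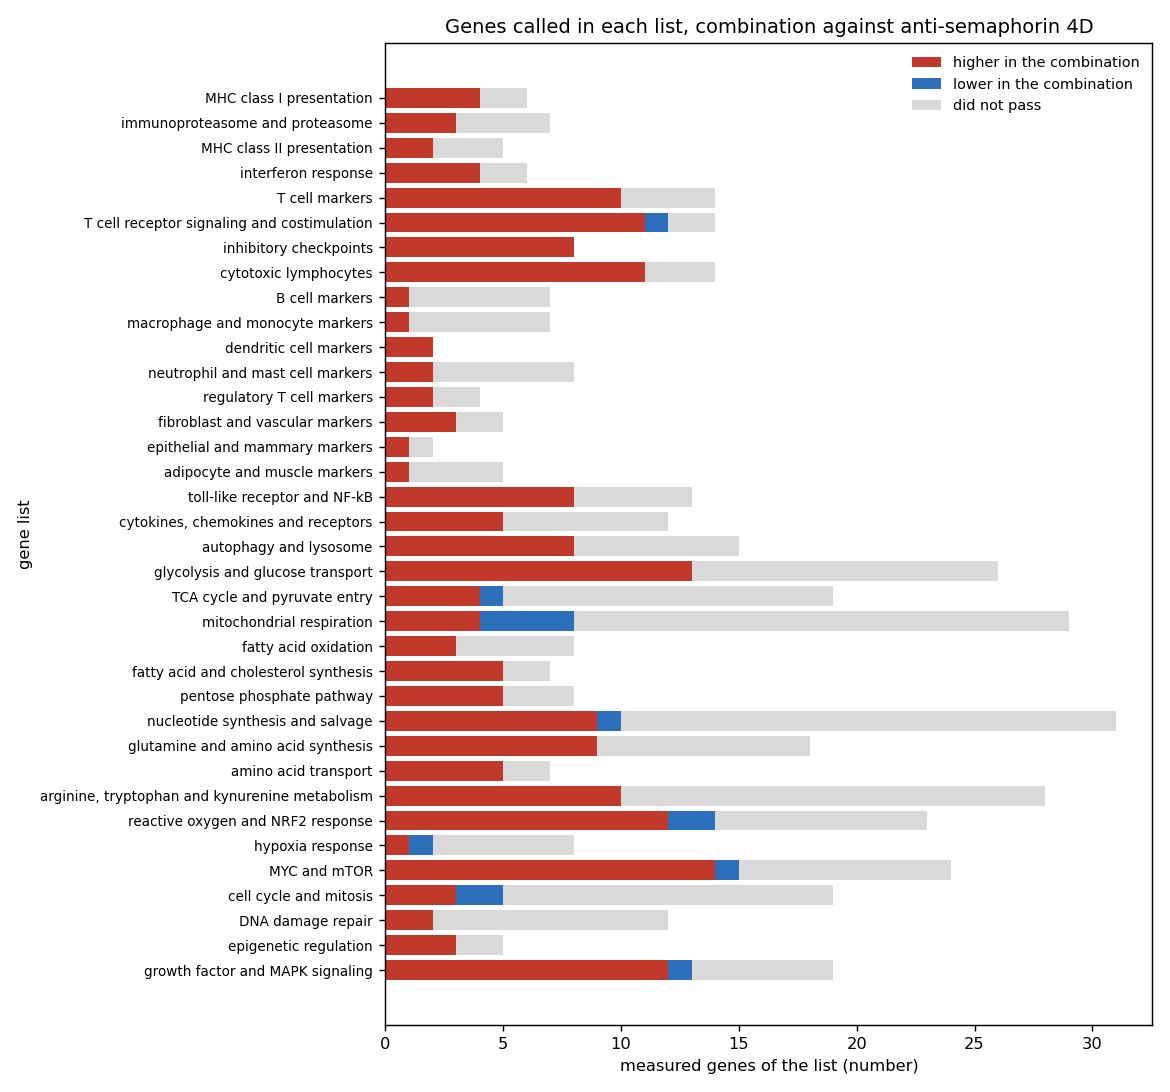
Number of measured genes of each of the 36 gene lists that were higher (red), lower (blue) or did not pass (gray) in the combination against anti-semaphorin 4D (limma, adjusted p under 0.05), on the deposited scale. All 8 inhibitory checkpoint genes and 10 of 14 T cell markers are higher, while lists such as mitochondrial respiration, with 4 of 29 higher and 4 lower, are mostly gray.

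Of 26 genes of glycolysis and glucose transport, 13 rose (median 0.48), close to the 41.8% and 0.46 of the panel, and with median centring 5 were higher and 5 lower. Hk3, the hexokinase of blood cells, was 7.81, 10.21 and 8.79 in treated and 6.28, 7.97 and 8.34 in untreated combination tumors, against 4.74, 4.52, 3.91 and 4.58 in anti-semaphorin 4D tumors. It was above the limit in all 6 combination samples and in none of the others, and at least 6.87-fold higher (adjusted p = 0.00165). Hk2, the inducible hexokinase, was between 8.96 and 10.08 (median 9.35), against 6.38, 7.65, 7.25 and 8.28, 4.09-fold higher (adjusted p = 0.00267), also without overlap. Hk1, the hexokinase of most tissues, had a log2 change of -0.09 (SE 0.15, adjusted p = 0.636).

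Pfkm, the muscle-type phosphofructokinase, rose 2.05-fold and Tigar, which lowers glycolytic flux, 2.07-fold (adjusted p = 0.00165 and 0.00262). The lactate dehydrogenase Ldha had a log2 change of 0.06 (SE 0.18, adjusted p = 0.791). The glucose transporter Slc2a1 was between 7.80 and 8.52 in combination tumors, against 8.33, 8.46, 8.41 and 8.50, with a log2 change of -0.39 (SE 0.17, adjusted p = 0.085). With median centring Slc2a1 was lower (log2 change -0.85, adjusted p = 0.00645), as it was with housekeeping centring (adjusted p = 0.0205).

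Lipid synthesis genes rose. Of 7 fatty acid and cholesterol synthesis genes, 5 rose (median 1.00), and with median centring 4 were higher and 1 lower. Srebf1, the transcription factor of lipogenesis, was between 10 and 10.90 (median 10.79), against 9.59, 9.38, 9.12 and 9.47 (2.36-fold, adjusted p = 0.00235). Scd1, which desaturates fatty acids, rose 2.50-fold (adjusted p = 0.00433). Fasn and Acaca, which make them, rose 2.46-fold (adjusted p = 0.00522) and 1.99-fold (adjusted p = 0.00331). All 4, named for their small p, were separated between the arms (31.8% of the panel was, upward) and kept their calls with median centring. Of 8 fatty acid oxidation genes, 3 rose (median 0.16), and with median centring 2 were higher and 3 lower. The thiolase Acaa2 rose 2.30-fold (adjusted p = 0.00165), and Cpt1a, the mitochondrial entry step, 1.62-fold (adjusted p = 0.0202). Cpt1a lost its call with either centring (adjusted p = 0.315 and 0.0516).

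Of 28 arginine, tryptophan and kynurenine genes, 10 rose, a smaller share than in the panel, and 3 of these were below the limit in all 10 samples. The list's median was 0.50, or 0 with dim genes at their bound, and with median centring 3 were higher and 4 lower. Among those that rose were enzymes of the kynurenine pathway, which degrades tryptophan. Haao, which makes the precursor of quinolinic acid, was 6.15, 7.17 and 6.17 in treated and 5.75, 6.85 and 6.15 in untreated combination tumors, against 4.48, 3.70, 3.24 and 3.32. It was above the limit in all 6 combination samples and in none of the others, at least 1.89-fold higher (adjusted p = 0.00165). Kynureninase (Kynu) was at least 2.72-fold higher (adjusted p = 0.00173), and the formamidase Afmid rose 2.49-fold, with 1 of 4 anti-semaphorin 4D samples above the limit (adjusted p = 0.00165).

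Arg1 and Nos2 encode enzymes that use arginine. Arg1, the arginase of wound-type macrophages, was 12.35, 15.15 and 13.56 in treated and 11.90, 12.24 and 11.85 in untreated combination tumors, against 12.88, 12.01, 12.47 and 12.22. The arms overlapped, with the 2 highest values in treated combination tumors (log2 change 0.45, SE 0.52, adjusted p = 0.506). Nos2, the inducible nitric oxide synthase, exceeded the limit in 3 of 6 combination samples and in no other (log2 change 2.14, SE 0.68, adjusted p = 0.0278). Its adjusted p was 0.0802 without replicate 1 of the treated anti-semaphorin 4D tumors and 0.0559 with median centring.

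Of 23 reactive oxygen and NRF2 genes, 12 rose and 2 fell (median 0.65), and with median centring 4 were higher and 4 lower. Alox15, a lipoxygenase of macrophages and eosinophils, was 7.64, 10.88 and 9.16 in treated and 4.88, 6.64 and 6.94 in untreated combination tumors, against 3.91, 4.0, 2.73 and 4.0. It exceeded the limit in 5 of 6 combination samples and was at least 4.72-fold higher (adjusted p = 0.003). Thioredoxin reductase (Txnrd1) rose 1.94-fold and catalase (Cat) 1.66-fold (adjusted p = 0.00245 and 0.00278), and Cat lost its call with median centring (adjusted p = 0.0866). Of 15 autophagy and lysosome genes, 8 rose (median 0.85), among them the glucuronidase Gusb (2.60-fold, adjusted p = 0.0054). With median centring 4 of the 15 were higher and 1 lower. Cathepsin D (Ctsd) was 11.93, 13.38 and 12.61 in treated and 10.86, 10.79 and 11.23 in untreated combination tumors, against 11.11, 10.59, 10.20 and 10.33 (2.36-fold, adjusted p = 0.01).

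In the pentose phosphate pathway 5 of 8 genes rose (median 0.56), led by H6pd (2.50-fold) and Pgd (2.05-fold; adjusted p = 0.00315 and 0.00442). With median centring 3 of the 8 were higher. In nucleotide synthesis 9 of 31 rose and 1 fell (median 0.28), and with median centring 1 was higher and 8 lower. Ctps, which makes CTP, rose 2.42-fold (adjusted p = 0.00323). Of 18 genes that make glutamine and other amino acids, 9 rose (median 0.37), among them asparagine synthetase (Asns, 2.02-fold, adjusted p = 0.0048). With median centring 1 of the 18 was higher and 3 were lower. In amino acid transport 5 of 7 rose, 2 of them below the limit in all 10 samples, and with median centring 2 were higher and 1 lower. The list's median was 0.83, or 0 with dim genes at their bound. The measured ones included Slc3a2 and Slc7a5, the 2 chains of a leucine transporter, which rose 1.78-fold and 1.77-fold (adjusted p = 0.00363 and 0.0124). With median centring Slc7a5 lost its call (adjusted p = 0.19).

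Mitochondrial and mitotic lists held genes that fell beside genes that rose. Of 29 mitochondrial respiration genes, 4 rose and 4 fell (median 0.10), and with median centring none was higher and 12 were lower. Of 19 genes of the TCA cycle and pyruvate entry, 4 rose and 1 fell (median 0.06), and with median centring 1 was higher and 8 lower. Ogdh, a TCA cycle dehydrogenase, rose 1.78-fold (adjusted p = 0.00173) and kept its call there. Of 19 cell cycle genes, 3 rose and 2 fell (median 0.01). Mki67, a marker of proliferating cells, had a log2 change of 0.59 (SE 0.24, adjusted p = 0.0716).

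Cdca5, which protects sister chromatid cohesion, had the largest fitted change of the panel. It was between 6.72 and 7.67 (median 7.13) in combination tumors, against 6.15 in replicate 1 of the treated anti-semaphorin 4D tumors and 1.00 in the other 3. The combination values were tight and above the limit, and 1 antibody sample lay close to the lowest of them. The adjusted p was 0.00323. Among scaled columns alone, which leave 1 anti-semaphorin 4D sample of each kind, the log2 change was 3.55 in place of 4.84. Both sizes are set against values of 1.00 and are not folds. Low and high values also occurred outside this comparison. Cdca5 was 1.00 and 1.84 in untreated control tumors, and 1.81 and 7.32 in untreated HER2 DC1 tumors. It was 6.55 and 7.87 in treated HER2 DC1 tumors. Of the treated control tumors, replicate 1 was at 5.32, under its limit of 5.42, and replicate 2 was above its limit. The cause of this split was not tested.

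**Figure D4:**
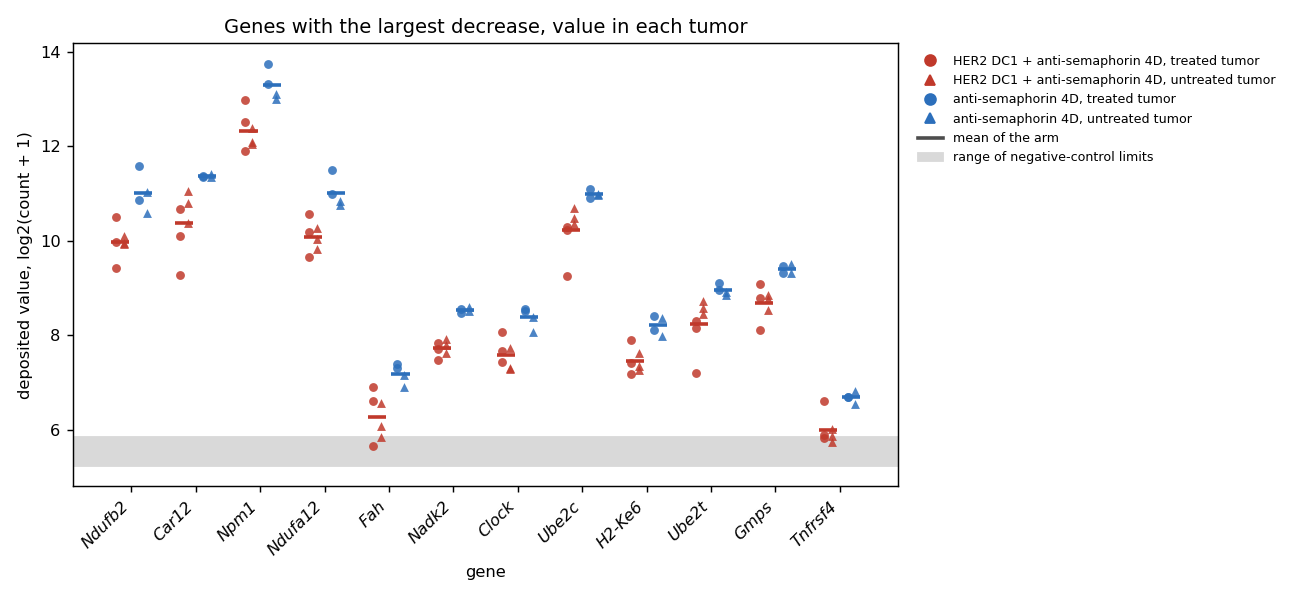
Deposited log2(count + 1) values of the 12 genes with the largest decrease outside the panel's housekeeping genes, in each combination tumor (red) and each anti-semaphorin 4D tumor (blue), with circles for treated and triangles for untreated tumors, a bar at the mean of each arm and a gray band over the range of the negative-control limits. The 12 changes lie between -1.03 and -0.69 on the log2 scale, and the lowest values of Car12, Ube2c and Ube2t belong to 1 treated combination tumor.

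All 23 genes that fell stayed lower in each scaling. The largest decrease was that of Mrps5, a housekeeping gene that encodes a protein of the mitochondrial ribosome, at 6.60 ± 0.38 (SD, n = 6) against 7.89 ± 0.13 (n = 4; log2 change -1.30, adjusted p = 0.00173). Ndufb2, a subunit of respiratory complex I, was 10.51, 9.43 and 9.97 in treated and 10.10, 9.96 and 9.94 in untreated combination tumors, against 11.58, 10.86, 11.03 and 10.59. All 6 combination values lay below the lowest of the antibody arm. The change was -1.03 (log2, SE 0.24, adjusted p = 0.0071). Ndufa12, another subunit of complex I, fell by 0.93 (adjusted p = 0.00571), and Cox6b1, a subunit of cytochrome oxidase, by 0.65 (adjusted p = 0.0101), both also without overlap.

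Npm1, a nucleolar chaperone of ribosome assembly, was between 11.89 and 12.97 (median 12.23), against 13.75, 13.32, 13.00 and 13.10 (log2 change -0.98, SE 0.21, adjusted p = 0.00522). Its highest combination value lay just below the lowest of the antibody arm. Nadk2, the mitochondrial NAD kinase, was between 7.47 and 7.93 (median 7.76), against 8.48, 8.56, 8.51 and 8.59 (log2 change -0.80, SE 0.13, adjusted p = 0.00198). Clock, a circadian transcription factor, fell by 0.80 (adjusted p = 0.00442). H2-Ke6, a dehydrogenase encoded within the MHC region, fell by 0.76 (adjusted p = 0.0071), Gmps, which makes GMP, by 0.71 (adjusted p = 0.0125), and Fah, the last enzyme of tyrosine breakdown, by 0.91 with overlapping arms (adjusted p = 0.0129).

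Car12, a membrane carbonic anhydrase, was 10.67, 9.28 and 10.10 in treated and 11.06, 10.80 and 10.38 in untreated combination tumors, against 11.36, 11.38, 11.35 and 11.42. The antibody arm was tight and the combination arm wide (log2 change -0.99, adjusted p = 0.0154). The ubiquitin-conjugating enzymes Ube2c, which acts at mitotic exit, and Ube2t, of the Fanconi pathway, fell by 0.77 and 0.72 (adjusted p = 0.0208 and 0.0384). Without 1 treated anti-semaphorin 4D tumor the adjusted p reached 0.0542 for Car12 and 0.0735 for Ube2c (replicate 2) and 0.121 for Ube2t (replicate 1).

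The comparison was then made within each kind of tumor, with 3 combination against 2 anti-semaphorin 4D samples. In treated tumors 264 genes were higher (34.4%) and 13 lower (1.69%), with a median change of 0.55 over the panel. The 5 higher genes with the largest change were Pdcd1lg2 (5.90), Lat (5.74), Alox15 (5.28), Cd28 (4.51) and Hk3 (4.31; log2 changes, adjusted p from 0.00821 to 0.0083). All 5 were below the limit in both treated anti-semaphorin 4D tumors, so these fitted sizes and their order are set against background and are not folds. Folr1, a folate receptor, was 9.04, 7.27 and 8.90, against 9.99 and 9.52 (log2 change -1.35, adjusted p = 0.0497), and Car12 also fell by 1.35 (adjusted p = 0.0243). The count of 277 calls came to 1 without replicate 1 of the treated anti-semaphorin 4D tumors and to 84 without replicate 2, which leave 1 sample in that group.

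In untreated tumors 13 genes were higher (1.69%) and none lower (0.0%), while 252 had an unadjusted p under 0.05, and the median change was 0.39. All 13 also passed in treated tumors. They included Cdca5 (6.26), Haao (2.97), H2-T23 (2.43), Idnk (1.81), Trp53 (1.57), Mtor (1.48), Rela (1.47), Afmid (1.44), Akt1s1 (1.29), Acaa2 (1.19), Pfkm (1.11) and Abl1 (1.02), with log2 changes given. Haao had adjusted p = 0.0466 and the others 0.0489. Cdca5, Haao, Idnk and Afmid were below the limit in both untreated anti-semaphorin 4D tumors. Their fitted sizes are set against background and are not folds. The count was 0 with either centring and 145 without replicate 2 of the treated combination tumors. Of the T cell markers, T cell signaling and costimulatory genes, inhibitory checkpoints and cytotoxic lymphocyte genes, none passed in untreated tumors. In treated tumors 10 of 14, 10 of 14, 7 of 8 and 9 of 14 of them were higher.

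Whether the effect of the added cells differs between kinds of tumor was tested as an interaction. No gene passed (0.0%), 37 had an unadjusted p under 0.05, and the smallest adjusted p was 0.728, so a difference was not detectable with these samples. Cd274 changed by 3.28 in treated and 2.76 in untreated tumors, a difference of 0.52 (SE 0.915). H2-T23 changed by 2.18 and 2.43, a difference of -0.245 (SE 0.553). Cd28 and Lat, with fitted changes of 4.51 and 2.11 (difference 2.40, SE 1.13) and of 5.74 and 3.50 (difference 2.24, SE 1.04), were below the limit in all 4 anti-semaphorin 4D tumors and had adjusted p = 0.728 for the difference. The smallest unadjusted p belonged to Nrde2, a housekeeping gene of the panel, and to Slc1a5, a glutamine transporter, whose changes were 2.18 and 0.31 (difference 1.87, SE 0.48), and Rimklb, below the limit throughout.

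**Figure D5:**
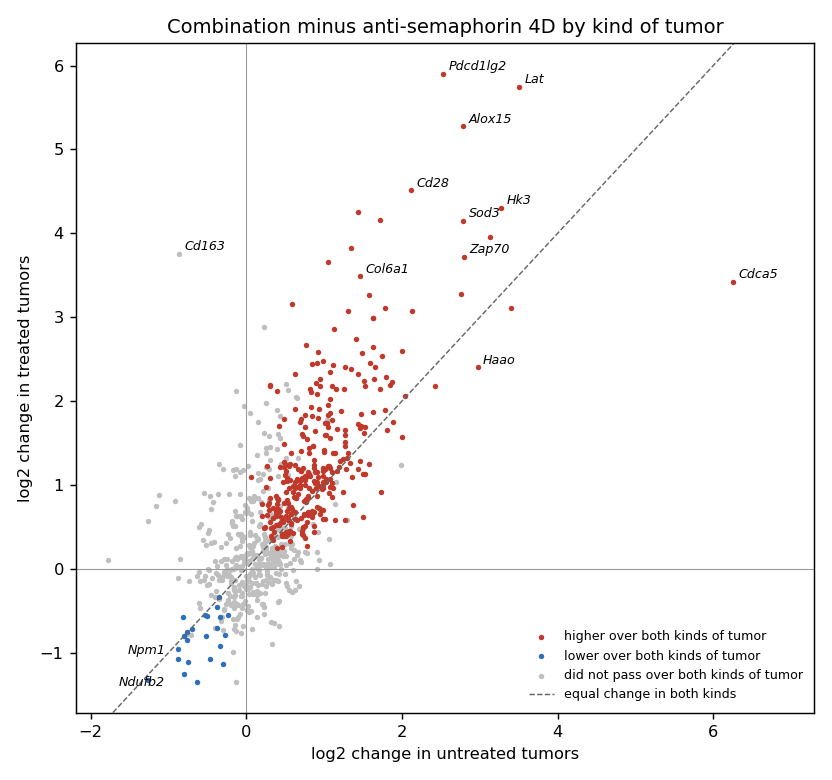
Log2 change of each of 768 genes between combination and anti-semaphorin 4D, in treated tumors (vertical axis, 3 against 2 samples) against untreated tumors (horizontal axis, 3 against 2 samples), colored by the call over both kinds of tumor. All 344 called genes, selected on the change over both kinds together, have the same sign in both. Many lie above the dashed line of equal change. Cdca5 lies below it, at 6.26 in untreated tumors, where both anti-semaphorin 4D values were 1.00, and 3.42 in treated tumors.

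The same cells were also given without the antibody, in an arm of 4 tumors labelled HER2 DC1. These share no sample with this comparison and were set against 4 control tumors (2 of each kind of tumor in both arms). There 1 of 768 genes passed (0.13%), while 194 had an unadjusted p under 0.05. That gene was Haao, at 5.38 and 5.58 in treated and 4.01 and 5.0 in untreated tumors, against 3.91 and 4.39 in treated and 2.32 and 1.84 in untreated control tumors (log2 change 1.88, SE 0.32, adjusted p = 0.0411). Haao exceeded the limit in replicate 1 of the treated HER2 DC1 tumors and in none of the other samples of this contrast. Its fitted size is therefore set against background and is not a fold. With the replicate number as a block no gene passed. Panel counts before scaling were only 203509 in replicate 2 of the untreated control tumors and 238079 in replicate 1 of the untreated HER2 DC1 tumors. The other samples of this contrast held 624529 to 861532. The bearing of this lower depth on the contrast was not tested, and the same samples enter the test below.

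The difference between the effect of the cells with and without the antibody passed for no gene (0.0%), with 131 at an unadjusted p under 0.05 and a smallest adjusted p of 0.153. H2-T23 changed by 2.31 with and 1.00 without the antibody, a difference of 1.30 (SE 0.35), and Cd274 by 3.02 and 1.72 (difference 1.30, SE 0.58, adjusted p = 0.282). Cxcl9 changed by 3.25 and 2.16 (difference 1.09, SE 0.92, adjusted p = 0.58). Lat had the smallest unadjusted p, 0.000753, with changes of 4.62 and 1.67 (difference 2.96, SE 0.68), followed by Mycl (difference 2.50, SE 0.59) and Col6a1 (difference 1.88, SE 0.47). In HER2 DC1 tumors Lat was 3.37 and 4.0 in treated and 1.81 and 2.32 in untreated tumors, below the limit in all of them. All arms were fitted together over all 18 samples, and a larger change with the antibody was not shown for any gene at this threshold.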

How the data were processed

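The values used are the authors' deposited log2(count + 1) table of 782 probes, from which 6 positive and 8 negative control probes were set aside. The submitters' processing notes name limma without a version, and for other steps nothing is given in the sources at hand. Undoing the log2 of the deposited values showed scaled columns (factors 0.736 to 1.32 in the 10 samples, with 97.0% to 100.0% of recovered counts up to 500 whole within 0.05) and whole-number columns. Each sample's limit was set 2 SD above the mean count of its negative-control probes, times its factor.

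Differences were fitted with limma 3.58.1 (R 4.3.3) on the deposited log2 values, arm plus kind of tumor for the main comparison, group means for the comparisons within kinds and the interaction, and group means over 18 samples for the effect of the cells with and without the antibody. P-values were adjusted over 768 genes by the Benjamini-Hochberg method, and the threshold was 0.05. Fold changes are on the log2(count + 1) scale, which understates changes of low genes. For genes below the limit in all samples of an arm, the fold is a bound against the limit, and no interval covers more than the spread between samples. The code was tested on simulated data. Figures were drawn with matplotlib 3.10.9 and tables with pandas 2.3.3 and numpy 2.4.6 (Python 3.11.15).

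Named genes are the 12 with the largest change in each direction above the limit in at least 3 of 6 or 2 of 4 samples of the higher arm, housekeeping genes left out, up to 4 per list with the smallest p, up to 5 per direction in the other contrasts or else the 3 with the smallest p, and a fixed set of immune and metabolic genes. Others, among them Cd3d, Cd3g, Cd8b1, Lag3, Nt5e, Cd276, Ptprc, Prf1, Hk1, Mrps5, Foxp3, Tnfrsf17, Itgam, Cd14, Cd163 and Ctsd, were named after their values were seen. The comparison, its samples and the lists were chosen with earlier results of these data known. Sema4d, Plxnb1, Plxnb2 and Erbb2 are not analysed here. Some genes counted in the lists are not reported here by name. Alternatives were 2 centrings, a pseudocount of 10, a filter on low values, scaled columns alone, a column term, all 18 samples, trended and robust variance, replicate and random blocks, and leaving out each sample.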

Additional observations from a re-analysis of the deposited data

Results flagged for a closer look

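Of 68 sets of samples tested for a value far from the rest of its arm, 6 stood out, and chance gives about 1 in 20. Replicate 2 of the treated combination tumors had Gzmb at 8.36, with the other combination tumors between 5.53 and 6.07, and Ube2c at 9.26, with the others between 10.22 and 10.70. Replicate 3 of the treated combination tumors had Tnfrsf4 at 6.62, with the others between 5.75 and 6.02. Among anti-semaphorin 4D tumors, replicate 1 of the treated ones had Cdca5 at 6.15, with the other 3 at 1.00, and Ifng at 3.06, below the limit, with the others between 3.91 and 4.09. Replicate 1 of the untreated ones had Alox15 at 2.73, also below the limit, with the others between 3.91 and 4.0.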

How the results depend on the processing

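The 344 calls of the main comparison came to 219 (209 higher, 10 lower) among scaled columns alone, where all 344 genes kept their sign and 205 of the higher genes kept their call, and to 267 to 358 when 1 sample was left out. Without replicate 2 of the treated combination tumors 325 genes were higher (42.3%) and 25 lower (3.26%), 308 and 20 of them the same genes. The split of higher against lower moved with scaling, to 150 and 142 with median centring and 239 and 48 with housekeeping centring. In treated tumors the 277 calls ranged from 1 to 327 when 1 sample was left out. In untreated tumors the 13 calls became 0 with median and 0 with housekeeping centring, 33 with a pseudocount of 10, 71 with the filter on low values, 96 with all 18 samples and 77 with trended and robust variance, and ranged from 0 to 145 when 1 sample was left out. The cause was not tested. The interaction ranged from 0 to 1 call and the difference with and without antibody from 0 to 4 when 1 sample was left out. With median centring Psmc1 turned to -0.134 and Kif2c to -0.008. Of single-gene values under all alternatives, 3041 kept direction and side of the threshold, 163 lost and 49 gained a call.

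Replicate numbers were not shown to pair the samples. Same-numbered samples of the 2 arms correlated at 0.0697 to 0.128 within kinds, and treated and untreated samples of 1 arm and number, which could share a mouse, at 0.166, 0.166, 0.359, -0.0589 and 0.0206. These are correlations of deviations from group means. The 2 samples of each anti-semaphorin 4D group deviate equally in opposite directions, so the second 0.166 repeats the first. With arm and number as a random block (consensus correlation 0.157) the main comparison gave 302 calls. With the replicate number as a block the main comparison gave 303 higher and 22 lower genes, untreated tumors 80 calls and HER2 DC1 against control 0 (limma, 174 at an unadjusted p under 0.05). With 2 to 3 samples a group and 121 genes below the limit in all 10 samples, small changes of low genes could not be measured.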
